A study of Mus musculus with 6 samples.

Results

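The genes described here are those of the proteasome, the protease that degrades ubiquitin-tagged proteins, measured in abdominal white adipose tissue (WAT) of hNAG-1 and wild-type (WT) females. They were taken by name: every non-control probe whose gene name in the array files starts with Psma to Psmg followed by a digit, with the brightest probe standing for a gene. This gave 44 genes, carried by 67 probes, out of 27962 gene names carried by 41174 probes. Of the 44, 14 encode the 20S core, 17 the 19S cap and 3 the catalytic subunits of the immunoproteasome. A further 5 encode other activators or an inhibitor, 3 encode assembly chaperones of the cap and 1, Psma8, a testis-type core subunit. The last, Psmc3ip, carries the name only, since its product is a recombination protein that binds the product of Psmc3.

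The 26S proteasome is a barrel, the 20S core, closed at its ends by 19S caps. In the core, rings of alpha subunits form the gates and rings of beta subunits hold the cutting sites, which belong to the products of Psmb5, Psmb6 and Psmb7. Cells exposed to interferon gamma, and immune cells at rest, replace these with the products of Psmb8, Psmb9 and Psmb10 to form the immunoproteasome, which shapes peptides for MHC class I. The cap recognises ubiquitin chains, removes them and unfolds the substrate with a ring of ATPases. In brown fat the transcription factor Nfe2l1 (also called NRF1 or TCF11) is known to raise proteasome genes together when protein turnover is high.

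Gene expression was measured on 6 single-colour Agilent arrays, 3 for hNAG-1 females and 3 for WT females, all C57/BL6 and 30 wk of age. RNA of 2 mice was pooled and labelled with Cy3 for each array, so that 6 mice of each genotype were used and no mouse was in 2 pools. The hNAG-1 mice carry a human NAG-1 (GDF15) transgene that is expressed in most tissues and strongly in fat. They come from a single founder line. The methods of the paper name an Affymetrix array, whereas the files come from an Agilent scanner. The samples are bulk tissue, in which fewer cells of a type and less RNA per cell cannot be told apart.

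The 3 WT arrays shared a slide with hNAG-1 replicate 1, and hNAG-1 replicates 2 and 3 lay on another slide without a WT array. Correlations between arrays ran from 0.964 to 0.987. All 10 adipocyte markers were measured, and their summed signal, in units of each array's 75th percentile, was 2199 to 2652 in hNAG-1 mice and 1796 to 2181 in WT mice, without overlap. WT replicate 2 stood apart in carrying exocrine pancreas RNA, with a summed signal of 23.9 over 7 measured markers, against 5.16 to 5.64 in the hNAG-1 arrays and 4.20 and 5.15 in the other WT arrays. The 8 skeletal muscle markers summed to 314 in hNAG-1 replicate 2 and 49.7 and 67.7 in the other hNAG-1 arrays, against 43.2 to 210 in WT arrays. Macrophage markers summed to 125 to 130 in hNAG-1 mice and 116 to 151 in WT mice, and the 9 T and B cell markers to 2.73 to 5.36 in hNAG-1 mice and 2.07 to 3.05 in WT mice. Fibroblast markers summed to 432 to 513 in hNAG-1 mice and 484 to 562 in WT mice, and mesothelial markers to 42.4 to 55.9 in hNAG-1 mice and 58.2 to 61.2 in WT mice. The immune and fibroblast sums overlapped between genotypes, and the adipocyte and mesothelial sums did not. Gene by gene, 6 of 7 fibroblast markers were below 0 with 4 lower without overlap (median log2 fold change -0.32). Over all genes, 6.6% were lower without overlap. Of 8 macrophage markers, 7 were below 0 with 2, Cd68 and Itgam, lower without overlap (median -0.24). All 9 T and B cell markers were above 0, each with overlap (median 0.47). All 10 adipocyte markers were above 0 (median 0.28), against 58.9% of all genes, and all 10 were among the brightest 10% of genes. The part of any of these cell types in the differences below was not tested.

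The contrast of standard and immunoproteasome subunits rests on 6 probes of 60 bases, one for each catalytic gene, which are printed because the members of a pair encode related proteins.
Psmb5 probe: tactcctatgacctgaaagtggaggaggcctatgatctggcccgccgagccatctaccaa
Psmb8 probe: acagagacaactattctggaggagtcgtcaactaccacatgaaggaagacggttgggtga
Psmb6 probe: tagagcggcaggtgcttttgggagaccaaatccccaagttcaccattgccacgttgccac
Psmb9 probe: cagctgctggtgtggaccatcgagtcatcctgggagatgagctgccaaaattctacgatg
Psmb7 probe: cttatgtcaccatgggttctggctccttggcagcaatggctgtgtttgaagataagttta
Psmb10 probe: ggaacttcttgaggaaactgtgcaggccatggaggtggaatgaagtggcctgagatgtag
The longest run of bases shared within a pair was 8 for Psmb8 and Psmb5, 7 for Psmb9 and Psmb6 and 6 for Psmb10 and Psmb7, so the probes of a pair have little sequence in common. In the array's design, on mouse build mm7, these probes lie at chr14:49480764-49480823 (Psmb5), chr17:32280725-32281049 (Psmb8), chr11:70609086-70609145 (Psmb6), chr17:32262147-32262206 (Psmb9), chr2:38620757-38641176 (Psmb7) and chr8:104534632-104534691 (Psmb10). The Psmb8 and Psmb7 positions span 325 and 20420 bases, more than the probe, so these probes join exons across introns.

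The promoters of the first 2 pairs are shown, 250 bases before to 50 after the annotated start, as given by RefSeq for GRCm38.p6, because the genes of each pair are known to answer to different factors. Capitals mark a match to the antioxidant response element in Psmb5 and Psmb6 and to the gamma-activated site in Psmb8, and Psmb9 held neither. The windows are chr14:54617946-54618245 on the minus strand (Psmb5), chr17:34197945-34198244 on the plus strand (Psmb8), chr11:70525107-70525406 on the plus strand (Psmb6) and chr17:34187281-34187580 on the minus strand (Psmb9).
Psmb5 promoter: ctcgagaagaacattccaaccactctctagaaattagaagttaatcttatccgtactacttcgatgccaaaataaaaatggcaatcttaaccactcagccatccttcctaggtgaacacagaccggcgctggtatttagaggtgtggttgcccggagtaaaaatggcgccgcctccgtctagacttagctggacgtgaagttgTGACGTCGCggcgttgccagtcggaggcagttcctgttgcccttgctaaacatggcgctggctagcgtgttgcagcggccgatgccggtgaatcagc
Psmb8 promoter: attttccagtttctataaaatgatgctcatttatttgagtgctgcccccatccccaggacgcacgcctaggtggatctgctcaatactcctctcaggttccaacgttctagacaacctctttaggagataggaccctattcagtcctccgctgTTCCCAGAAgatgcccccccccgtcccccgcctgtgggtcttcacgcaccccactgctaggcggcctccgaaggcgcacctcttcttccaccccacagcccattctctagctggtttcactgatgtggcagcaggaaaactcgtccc
Psmb6 promoter: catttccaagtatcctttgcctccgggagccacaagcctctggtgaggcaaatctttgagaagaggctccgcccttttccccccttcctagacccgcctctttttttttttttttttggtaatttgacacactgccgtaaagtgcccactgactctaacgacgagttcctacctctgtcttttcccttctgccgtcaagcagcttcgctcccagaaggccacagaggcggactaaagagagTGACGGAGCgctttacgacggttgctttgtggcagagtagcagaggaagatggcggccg
Psmb9 promoter: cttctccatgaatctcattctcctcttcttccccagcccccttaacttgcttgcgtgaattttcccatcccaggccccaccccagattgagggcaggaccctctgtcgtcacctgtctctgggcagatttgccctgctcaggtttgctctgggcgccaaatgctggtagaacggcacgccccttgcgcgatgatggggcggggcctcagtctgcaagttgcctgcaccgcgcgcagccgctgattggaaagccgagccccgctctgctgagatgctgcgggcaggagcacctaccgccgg
The antioxidant response element, the sequence bound by NRF1 and its relative NRF2, was searched as TGACNNNGC on both strands. It lay in 6 of the 40 promoters found for 37 of the genes (15%), against 12.4% of 32851 RefSeq promoters. The gamma-activated site, through which interferon gamma acts on promoters, was searched as TTCNNNGAA on both strands and lay in 2 of 40 (5.0%), against 8.30% of all promoters. The CCAAT box lay in 14 of 40 (35.0%), against 37.4%, and the interferon-stimulated response element in 4 of 40 (10%), none of them of an immunoproteasome gene, against 3.44% of all. These are matches of letters only, and 7 genes had no promoter in the table.

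Relative to each array's 75th percentile, proteasome genes were higher in hNAG-1 WAT as a group, by small amounts. The percentile itself was lower on every hNAG-1 array (858, 712 and 629) than on every WT array (970, 913 and 935). The size of each gene's difference thus depends on this scaling, its sign can depend on it too, and unscaled signals were not tested. Before scaling, Psmb5 had 14274, 13362 and 10939 in hNAG-1 mice and 15479, 13475 and 14262 in WT mice. Psme3 had 2750, 3885 and 2491 in hNAG-1 mice and 2334, 2166 and 2440 in WT mice. The medians of the standard core and cap lay further above 0 than that of the 3 immunoproteasome genes. This difference between classes is described without a test. All 44 genes were measured above background on all 6 arrays and none was saturated. The log2 fold change of hNAG-1 over WT was above 0 for 42 of the 44, against 58.9% of the 21237 genes kept, and its median was 0.28, against 0.063 for all genes. At an unadjusted p under 0.05 in limma, 18 genes were higher (40.9%, against 8.39% of all genes) and 0 were lower (against 4.1%). The 3 hNAG-1 arrays lay above the 3 WT arrays, without overlap, in 30 genes (68.2%, against 13.6% of all genes), and in 0 genes did they lie below them (against 6.6%). No gene on the array passed an adjusted p of 0.05 in limma, and the lowest adjusted p of a proteasome gene was 0.235. The count of 18 was 7 without hNAG-1 replicate 2 (where 4.5% of all genes were higher at that threshold) and 10 without hNAG-1 replicate 3 (6% of all genes). It was 4 with slide as a fixed block (3.9% of all genes), 1 within the slide shared by both genotypes (2.7%) and 2 with another background correction, normexp (1.63%). Psmb7, Psmd1, Psmd5, Psma4 and Psme3 stayed below an unadjusted p of 0.05 in limma whichever array was left out, and Psmd5 also did so in the slide and normexp alternatives.

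**Figure D1:**
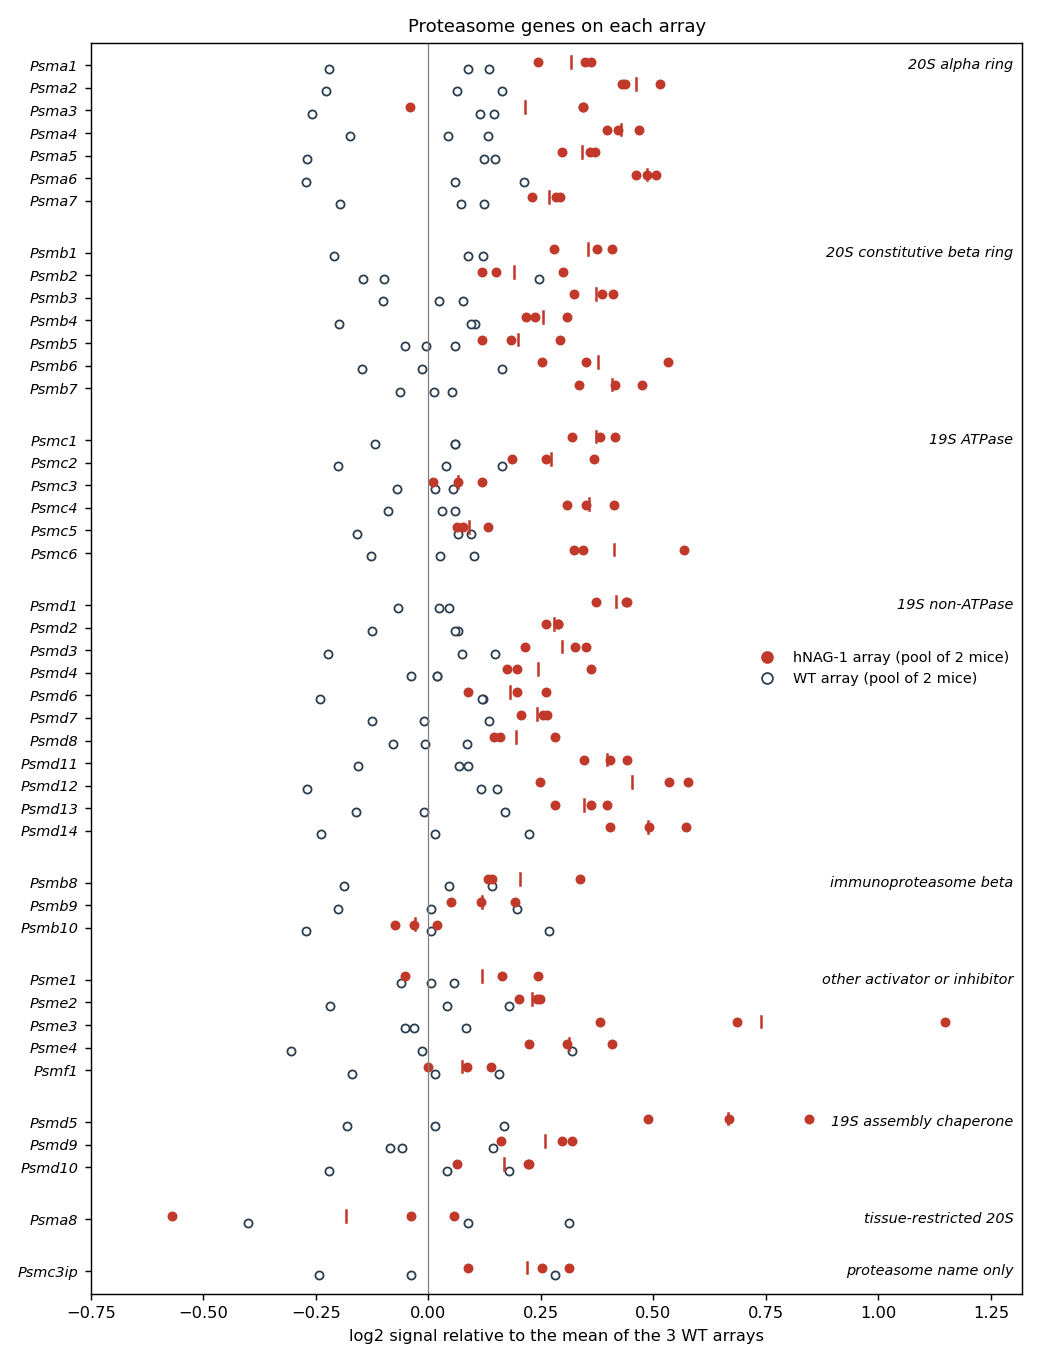
Each row is 1 proteasome gene and each point 1 array, with the log2 signal minus the gene's WT mean on the x axis; filled red points are hNAG-1 arrays, open points WT arrays, and the red bar is the hNAG-1 mean. In 30 of the 44 genes all red points lie to the right of all open ones, while the immunoproteasome rows overlap and WT replicate 2 is the lowest point in 39 rows.

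Most of the spread among WT arrays came from WT replicate 2, the one with pancreas RNA, which was the lowest of the 6 arrays for 39 of the 44 genes, whereas the highest value lay in hNAG-1 replicate 2 for 21 genes, replicate 3 for 10 and replicate 1 for 9. The median SD of a gene between arrays was 0.0709 in hNAG-1 mice and 0.171 in WT mice on the log2 scale. Without WT replicate 2 the core had a median log2 fold change of 0.23, the cap of 0.22 and the immunoproteasome of 0.019, and all 14 core and 17 cap genes remained above 0. Without it 12 of the 18 genes stayed at an unadjusted p under 0.05 in limma, where 6.31% of all genes were higher at that threshold. The part of pancreas RNA in the low values of this array was not tested.

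Brightness was a second feature that moved with the result, though not steadily. Over all genes, median log2 fold changes were 0.29 in the dimmest 10%, -0.021 at middle brightness and 0.11 in the brightest 10%. Proteasome probes are bright, with 25 of the 44 in the brightest 10% of genes, and bright genes tended to be higher in hNAG-1 mice. The median log2 fold change over all 2124 genes in that range was 0.11, and 18.1% of them were higher at an unadjusted p under 0.05 in limma. Of the 25 proteasome genes there, 12 were (48%), and their median was 0.32. Arrays of the 2 genotypes did not overlap in 21 of the 25 (84%), against 27.9% of all genes of that brightness. The 19 dimmer proteasome genes had a median of 0.22, with 6 of them (31.6%) higher at the same threshold. When the arrays were brought to 1 distribution by quantile normalization, the medians were smaller, at 0.22 for the core and 0.16 for the cap, and hNAG-1 arrays lay above WT arrays without overlap in 21 genes, against 13.2% of all genes under that setting.

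**Figure D2:**
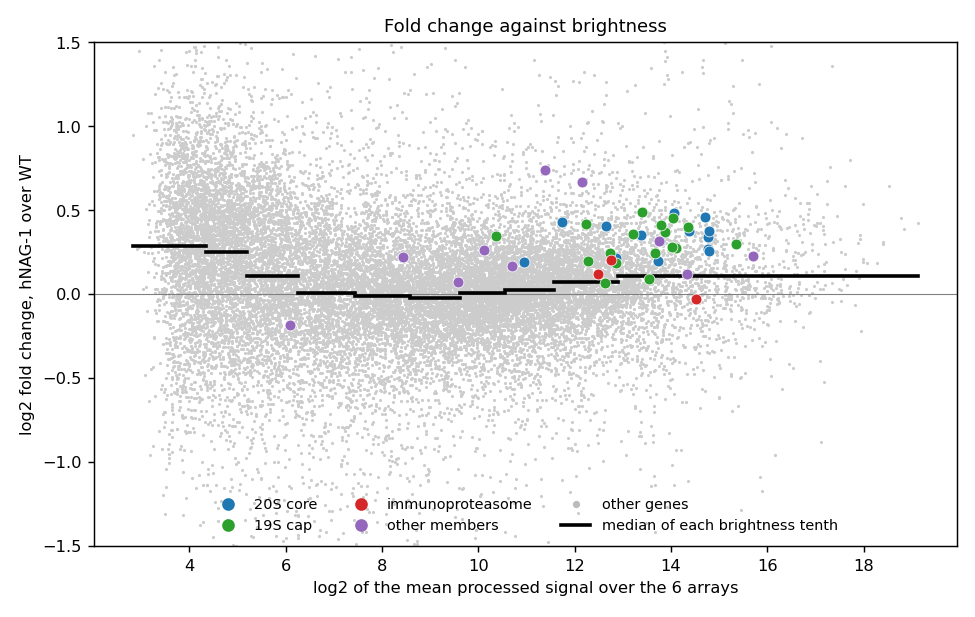
The y axis gives the log2 fold change, hNAG-1 over WT, and the x axis the log2 of the mean processed signal over the 6 arrays; grey points are all genes within the plotted range, coloured points are proteasome genes by class, and black bars are the medians of 10 groups of genes of equal size by brightness. The median of the brightest genes is 0.11, and most core and cap genes lie above it, while the immunoproteasome genes lie between -0.03 and 0.20.

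The classes differed in level. The core had a median log2 fold change of 0.35 (0.19 to 0.48), with 14 of 14 genes above 0, 7 higher at an unadjusted p under 0.05 in limma and 12 without overlap. For the cap the median was 0.30 (0.065 to 0.49), with 17 of 17 above 0, 9 higher and 14 without overlap. The immunoproteasome had a median of 0.12 (-0.029 to 0.20), with 2 of 3 genes above 0 and 0 higher or without overlap. Each of these classes can also be read array by array. The core median, relative to the WT mean of each gene, was 0.33, 0.38 and 0.31 in hNAG-1 replicates 1 to 3 and 0.088, -0.20 and 0.10 in WT replicates 1 to 3. The cap median was 0.31, 0.34 and 0.26 in the hNAG-1 arrays and 0.060, -0.13 and 0.069 in the WT arrays. In both classes the 3 hNAG-1 arrays lay above all WT arrays, including hNAG-1 replicate 1, which shared their slide. The immunoproteasome median was 0.12, 0.19 and 0.051 in the hNAG-1 arrays and 0.14, -0.20 and 0.046 in the WT arrays, so here the genotypes overlapped.

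**Figure D3:**
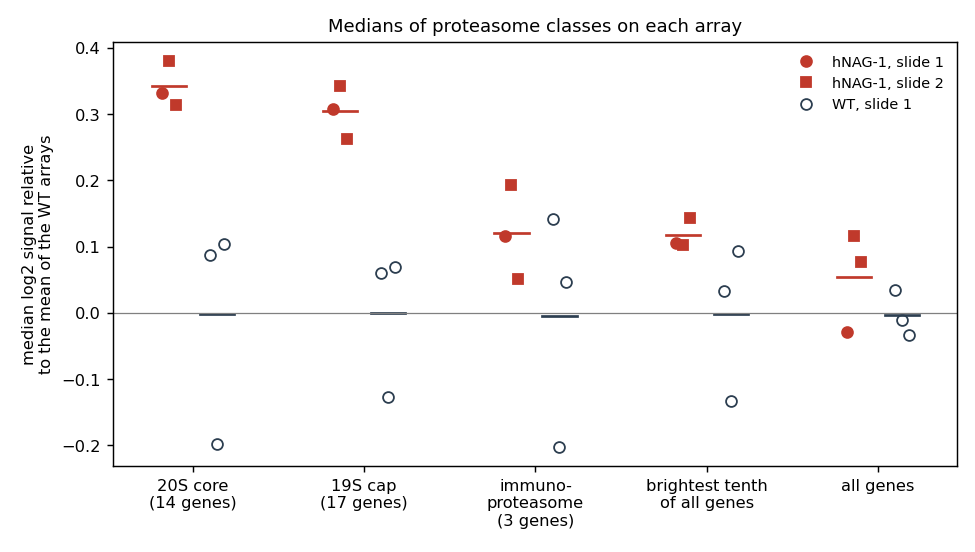
The y axis gives the median log2 signal of a class on each array, after subtraction of each gene's WT mean, for the core, the cap, the immunoproteasome, the brightest genes and all genes; filled red symbols are hNAG-1 arrays (circles slide 1, squares slide 2), open circles WT arrays, and lines are means. The hNAG-1 arrays lie at 0.31 to 0.38 for the core and 0.26 to 0.34 for the cap, above every WT array, and at 0.051 to 0.19 for the immunoproteasome, overlapping the WT range of -0.20 to 0.14.

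The difference between the immunoproteasome and the core varied less between arrays of a genotype (pooled SD 0.048) than the core (0.123) or the immunoproteasome (0.135) alone. The immunoproteasome median minus the core median was -0.22, -0.19 and -0.26 in the hNAG-1 arrays and 0.054, -0.0038 and -0.058 in the WT arrays. All hNAG-1 arrays were thus lower than all WT arrays in this difference.

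Within the core, both rings gave similar medians. The alpha ring, which gates the barrel, had a median of 0.34, with 3 of 7 genes higher at an unadjusted p under 0.05 in limma and 6 of 7 without overlap. Among these, Psma6 had a log2 signal, relative to the array's 75th percentile, of 4.57, 4.60 and 4.62 in hNAG-1 mice and 4.17, 3.84 and 4.32 in WT mice. Its log2 fold change was 0.48 (SE 0.152, limma adjusted p = 0.321). Psma2 had 5.20, 5.21 and 5.29 in hNAG-1 mice and 4.84, 4.55 and 4.94 in WT mice, a log2 fold change of 0.46 (SE 0.138, limma adjusted p = 0.304). In both genes the hNAG-1 arrays were close together and above the highest WT array. Psma4 was higher by 0.43 (SE 0.122), with 2.29, 2.22 and 2.25 in hNAG-1 mice and 1.96, 1.65 and 1.87 in WT mice, and Psma1 by 0.32 (SE 0.136). Psma5 and Psma7 were at 0.34 and 0.27. Only Psma3 overlapped between genotypes in this ring, with hNAG-1 replicate 3 at 3.00 and the other hNAG-1 arrays at 3.38, against 2.78 to 3.18 in WT mice.

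In the beta ring the median was 0.35, with 4 of 7 genes higher at that threshold and 6 of 7 without overlap. Psmb7, which encodes the trypsin-like site, had 3.22, 3.16 and 3.08 in hNAG-1 mice and 2.68, 2.76 and 2.80 in WT mice. The difference of 0.41 (SE 0.104, unadjusted p = 0.00851, limma adjusted p = 0.261) had the lowest p of the core. Psmb6, the caspase-like site, had 4.74, 5.02 and 4.84 in hNAG-1 mice and 4.65, 4.34 and 4.47 in WT mice, a log2 fold change of 0.38 (SE 0.139). Psmb5, the chymotrypsin-like site, differed least of the standard catalytic genes, by 0.20 (SE 0.107, unadjusted p = 0.116 in limma). Its values were 4.06, 4.23 and 4.12 in hNAG-1 mice and 3.997, 3.88 and 3.93 in WT mice, still without overlap. Of the noncatalytic genes, Psmb3 was at 0.37 (SE 0.107), Psmb1 at 0.35 (SE 0.133) and Psmb4 at 0.25 (SE 0.128), all without overlap, and Psmb2 at 0.19 (SE 0.147), with overlap.

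Each immunoproteasome gene overlapped between genotypes. Psmb8, which replaces Psmb5, had 3.09, 3.29 and 3.09 in hNAG-1 mice and 3.09, 2.77 and 3.00 in WT mice, a log2 fold change of 0.20 (SE 0.136, limma adjusted p = 0.571). Psmb9, which replaces Psmb6, had 2.83, 2.91 and 2.77 in hNAG-1 mice and 2.91, 2.51 and 2.72 in WT mice, a difference of 0.12 (SE 0.139, limma adjusted p = 0.746). Psmb10, which replaces Psmb7, had 4.77, 4.83 and 4.73 in hNAG-1 mice and 4.81, 4.53 and 5.07 in WT mice, a difference of -0.03 (SE 0.162, limma adjusted p = 0.953). The 95% intervals, -0.13 to 0.54, -0.22 to 0.46 and -0.43 to 0.37, include both 0 and the core median of 0.35, so these genes are not shown to be unchanged. The interval of Psmb10 ends below the 0.41 of Psmb7, but overlaps the interval of Psmb7, 0.15 to 0.66.

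Set against its standard counterpart on the same array, each immunoproteasome gene can be read free of array scaling, and these ratios were chosen after the values had been seen. The log2 ratio of Psmb10 to Psmb7, relative to the WT mean, was -0.51, -0.40 and -0.41 in hNAG-1 mice and 0.069, -0.28 and 0.22 in WT mice. That of Psmb9 to Psmb6 was -0.14, -0.34 and -0.30 in hNAG-1 mice and 0.035, -0.053 and 0.019 in WT mice. Both ratios were lower in all hNAG-1 arrays than in any WT array, by -0.44 and -0.26 on average, which an exact permutation test gives p = 0.1, the smallest that 3 against 3 arrays allow (two-sided). For Psmb8 to Psmb5 the ratio was 0.014, 0.044 and -0.042 in hNAG-1 mice and 0.082, -0.13 and 0.053 in WT mice, with an average difference of 0.0053 (exact permutation p = 1). A ratio of this kind shows unequal change of its genes, and not which of them differed.

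**Figure D4:**
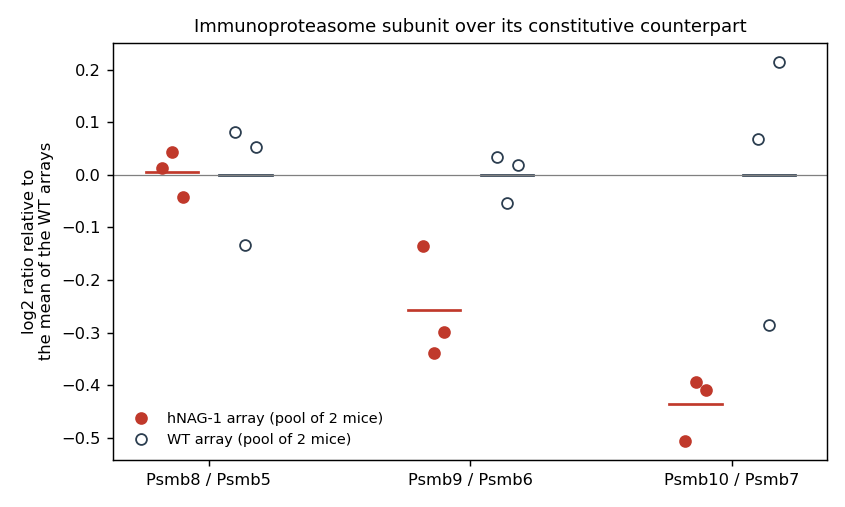
The y axis gives the log2 ratio of an immunoproteasome gene to its standard counterpart on the same array, minus its WT mean; filled red points are hNAG-1 arrays, open points WT arrays, and lines are means. The hNAG-1 arrays lie below all WT arrays for Psmb9 over Psmb6 and Psmb10 over Psmb7, at means of -0.26 and -0.44, and among them for Psmb8 over Psmb5.

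The cap was higher in both of its parts. In the ATPase ring, which unfolds substrates, the median was 0.31, with 3 of 6 genes higher at an unadjusted p under 0.05 in limma and 4 of 6 without overlap. Psmc1 had 4.31, 4.37 and 4.40 in hNAG-1 mice and 4.05, 3.87 and 4.05 in WT mice, a difference of 0.37 (SE 0.110). Psmc6 was at 0.41 (SE 0.128), Psmc4 at 0.36 (SE 0.105) and Psmc2 at 0.27 (SE 0.137), all without overlap. The other ATPase genes were nearest to no difference among the standard core and cap genes, Psmc3 at 0.065 (95% interval -0.19 to 0.32) and Psmc5 at 0.091 (-0.20 to 0.38).

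Among the 11 other cap genes the median was 0.30, with 6 higher and 10 without overlap. Psmd1, a large scaffold subunit, had 2.76, 2.76 and 2.69 in hNAG-1 mice and 2.36, 2.25 and 2.34 in WT mice. Its difference of 0.42 (SE 0.101, unadjusted p = 0.00649, limma adjusted p = 0.247) had the lowest p in the cap. Psmd14, the deubiquitinase that releases ubiquitin chains, had 3.84, 4.01 and 3.93 in hNAG-1 mice and 3.45, 3.20 and 3.66 in WT mice, with the largest log2 fold change of the cap at 0.49 (SE 0.152). Psmd11, which in human and worm cells is known to raise 26S assembly, had 4.85, 4.88 and 4.79 in hNAG-1 mice and 4.53, 4.29 and 4.51 in WT mice, a difference of 0.40 (SE 0.117). For these 3 genes every hNAG-1 array lay above every WT array. Psmd12 was at 0.45 (SE 0.170), Psmd13 at 0.35 (SE 0.127) and Psmd2, the other large scaffold subunit, at 0.28 (SE 0.108). The ubiquitin receptor gene Psmd4 was at 0.24 (SE 0.108), Psmd3 at 0.30, Psmd7 at 0.24 and Psmd8 at 0.20, without overlap, and Psmd6 at 0.18, with overlap. Psmc3 was at -0.0228 with quantile and -0.0210 with cyclic loess normalization and Psmc5 at -0.0225 with cyclic loess, so these ATPase genes have no settled direction.

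The largest differences of all 44 genes lay outside the particle itself. Psme3 encodes PA28 gamma, the nuclear activator that opens the core without ubiquitin or ATP. It had 1.68, 2.45 and 1.99 in hNAG-1 mice and 1.27, 1.25 and 1.38 in WT mice, a log2 fold change of 0.74 (SE 0.211, limma adjusted p = 0.290), with a wide spread among the hNAG-1 arrays. On the shared slide alone, and in the fit blocked on slide, Psme3 was at 0.38 (unadjusted p = 0.122 and 0.163 in limma), below the shared-slide values of Psmc6 (0.57), Psmb7 (0.47) and Psma4 (0.47) among others. Psmd5, a chaperone that holds the ATPase ring during cap assembly and is absent from the finished particle, had 2.94, 2.76 and 2.58 in hNAG-1 mice and 2.11, 1.91 and 2.26 in WT mice. Its difference of 0.67 (SE 0.153, unadjusted p = 0.00519, limma adjusted p = 0.235) had the lowest p of all 44. The other cap chaperones were at 0.26 (SE 0.119, Psmd9) and 0.17 (SE 0.143, Psmd10), with overlap for Psmd10.

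The remaining regulators differed by less than Psme3. Psme1 and Psme2 encode the 2 chains of the interferon-induced activator PA28, and were at 0.12 (SE 0.123) and 0.23 (SE 0.136), with overlap for Psme1 and without for Psme2. The probe of Psme2 bears the name of its intronless copy, Psme2b-ps, in the file and was placed by its accession, so the signals of the 2 loci cannot be told apart. Psme4, the activator PA200, was at 0.31 (SE 0.183) and Psmf1, the inhibitor PI31, at 0.074 (SE 0.128), both with overlap. Psma8, the testis-type alpha subunit, was dim and lay at -0.18 (SE 0.256), and Psmc3ip was at 0.22 (SE 0.168).

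Where a gene had more probes, they mostly gave the same sign. Of the 44 genes, 18 had several probes and 17 several above background. A dimmer probe had the opposite sign in 3 of these, Psmd7 (-0.032, against 0.24 for the brightest), Psme4 (-0.27, against 0.31) and Psmf1 (-0.088, against 0.074). Psmg1, Psmg2 and Psmg3, chaperones of core assembly, and Psmb11, a thymus subunit, stand under older names in the files and so fall outside the 44. They were at 0.20 (SE 0.134), -0.12 (SE 0.130), 0.22 (SE 0.159) and 0.37 (SE 0.568), with Psmb11 above background on 3 arrays only.

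Genes that work with the proteasome gave a mixed picture. Of 12 measured partners out of 14 listed, 2 were higher at an unadjusted p under 0.05 in limma and 0 lower, with a median of 0.16. Over all genes, 8.39% were higher and 4.1% lower at that threshold. The higher partners included Pomp, which directs assembly of the core and had 6.00, 6.06 and 6.13 in hNAG-1 mice and 5.79, 5.45 and 5.80 in WT mice (0.38, SE 0.138). Ubqln1, a shuttle for ubiquitinated proteins, was at 0.42 (SE 0.176) but not among those 2 (unadjusted p = 0.0559 in limma). Of 9 measured genes for ubiquitin and the p97 unfoldase out of 10 listed, 4 were higher and 0 lower, with a median of 0.26. Ufd1 and Nploc4, the adaptors of p97, were at 0.48 (SE 0.137) and 0.36 (SE 0.123), and Vcp, p97 itself, at 0.34 (SE 0.129). No gene of these lists passed an adjusted p of 0.05 in limma.

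The 8 genes listed for NRF1 control had a median of 0.019. At an unadjusted p under 0.05 in limma, 2 were higher and 1 lower (against 8.39% and 4.1% of all genes). Nfe2l1 had 5.26, 5.38 and 5.32 in hNAG-1 mice and 5.02, 4.81 and 5.16 in WT mice, a difference of 0.32 (SE 0.131, limma adjusted p = 0.398) without overlap. Keap1, which holds down NRF2, was at 0.29 (SE 0.0986). Mafk, a small Maf partner of both factors, was lower, with -1.43, -1.41 and -1.16 in hNAG-1 mice and -0.27, -0.32 and -0.90 in WT mice, a log2 fold change of -0.83 (SE 0.206, limma adjusted p = 0.252).

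Genes of MHC class I presentation, which the immunoproteasome serves, had a median of 0.083 over 10 measured. At that threshold 0 were higher and 0 lower (against 8.39% and 4.1% of all genes). B2m was at -0.11 (SE 0.175), Tap1 at 0.036 (SE 0.162), Tap2 at 0.25 (SE 0.117), Calr at -0.26 (SE 0.189) and Pdia3 at -0.17 (SE 0.147). Tap1 and Psmb9 are transcribed away from each other, and their promoter windows share 275 bases. Of 9 measured interferon control genes out of 10 listed, 0 were higher and 1 lower (against the same shares of all genes), with a median of -0.047. The lower gene was Irf9 (-0.28, SE 0.106), with 0.38, 0.32 and 0.29 in hNAG-1 mice and 0.69, 0.52 and 0.64 in WT mice. Irf1, which drives immunoproteasome genes after interferon gamma, was at 0.032 (SE 0.122) and Jak1 at -0.23 (SE 0.154).

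Of the 44 genes, 6 had a promoter window that overlapped one of another gene on the opposite strand. Psma2 was at 0.46 and Mrpl32, which shares 296 bases of the window, at 0.14 (SE 0.182). Psma7 was at 0.27 and Ss18l1, sharing 118 bases, at 0.36 (SE 0.166). Psmd13 was at 0.35 and the deacetylase gene Sirt3, sharing 184 bases, at 0.17 (SE 0.113). In all 6 pairs the neighbour's arrays overlapped between genotypes, as those of most genes did (13.6% of all genes were higher and 6.6% lower without overlap). Of the proteasome genes in these pairs, Psma2, Psma7 and Psmd13 did not overlap, and Psmb9, Psmc5 and Psmd10 did.

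The core and cap medians were above 0 under every alternative in the plot of processing choices, and their size varied. The core median, relative to the median of all genes, was 0.28 as reported, 0.20 with quantile normalization, 0.36 on the slide that held both genotypes and 0.17 without WT replicate 2. The cap was at 0.23, 0.14, 0.34 and 0.17 and the immunoproteasome at 0.057, 0.031, 0.15 and -0.037 under the same choices. In each of them the immunoproteasome lay below both. The shared-slide values compare hNAG-1 replicate 1 alone with the WT arrays. Slide as a fixed block gives the same differences, so these alternatives are not separate checks of size.

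**Figure D5:**
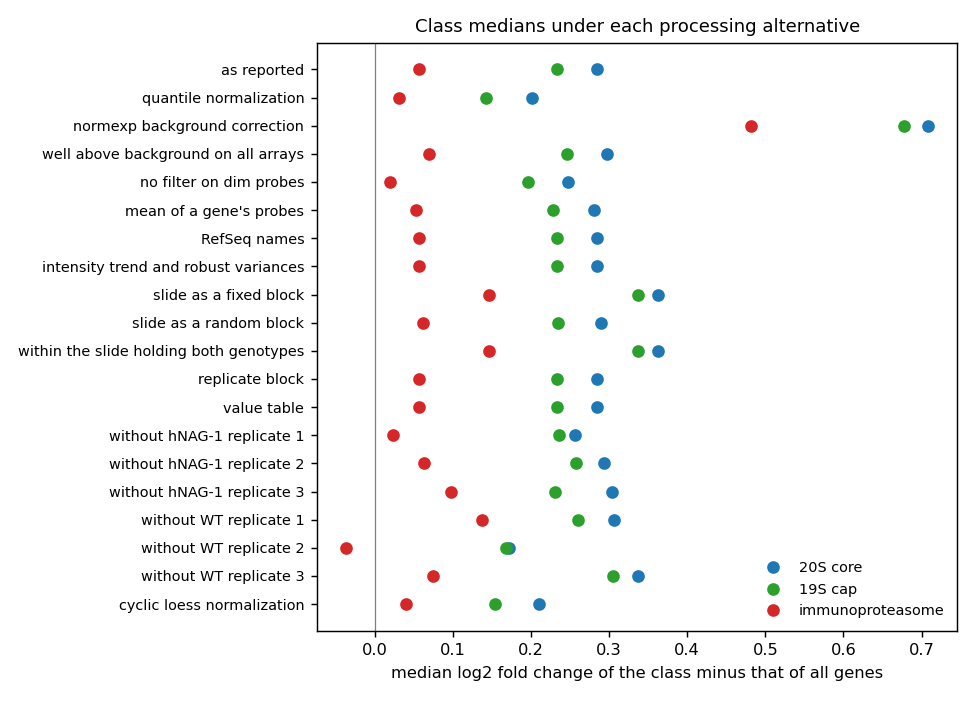
Each row is a way of processing the arrays and each point the median log2 fold change, hNAG-1 over WT, of a class minus the median of all genes (x axis). The core (blue) and cap (green) stay to the right of the immunoproteasome (red) in every row, with the core between 0.17 and 0.71 and the cap between 0.14 and 0.68.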

How the data were processed

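Total RNA of abdominal WAT was hybridised to 6 one-colour Agilent arrays. The files the authors deposited were written by Agilent Feature Extraction 9.5, as the submitters' processing notes give it, and the deposited intensity (the processed signal, linear) was background-subtracted within each array and not normalized between arrays. The value table holds the same intensity for all 45018 spots of each array. Per the file headers, probe positions follow the array's design (mm7).

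From these values 1639 control spots and 65 to 87 outlier-flagged spots per array were left out, with 48 probes missing on some array. From log2 of the signal the array's 75th percentile was subtracted (629 to 858 for hNAG-1 and 913 to 970 for WT arrays, with 71.2% to 82.0% of spots well above background), and the brightest probe was kept for each gene name if well above background on at least 3 of 6 arrays. The 21237 genes left entered a limma fit (version 3.58.1, R 4.3.3; lmFit, eBayes), with two-sided p-values adjusted by Benjamini-Hochberg over all of them and a threshold of 0.05. P-values measure the spread between pools of 2 mice, and the number of arrays limits the precision. A group's median is a description without a test. The fit was checked on simulated data.

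Genes named are the catalytic subunits, the PA28 and PA200 activators and the inhibitor, up to 4 of each other class and 3 of each pathway list with the smallest unadjusted p, and a few regulators. Others were added after their values were seen, as were the gene ratios. The members and lists were chosen with earlier results of these data known. The alternatives were quantile and cyclic loess normalization (the last chosen after the data were seen), normexp with an offset of 50, other filters, the mean of a gene's probes, RefSeq names, another variance model, slide and replicate number as blocks, and each array left out in turn. No promoter entry was used for 7 genes, and no protein sequence was used here. A few genes of the pathway lists are not reported here.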

Additional observations from a re-analysis of the deposited data

How the results depend on the processing

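No alternative put a proteasome gene past an adjusted p of 0.05 or below 0 at an unadjusted p under 0.05 in limma. The count of 18 higher genes was 2 with normexp (1.63% of all genes were higher there, against 8.39%), 4 with slide as a fixed block (3.9%), 1 within the slide holding both genotypes (2.7%), and 7 to 19 when each array was left out, the lowest without hNAG-1 replicate 2 (4.5%; 10 without hNAG-1 replicate 3, 6%). The cause was not tested. Psmb7, Psmd1, Psmd5, Psma4 and Psme3 stayed among them in all 6 such fits. The medians of core, cap and immunoproteasome were 0.51, 0.47 and 0.28 with normexp, which moved the median of all genes to -0.20. Quantile normalization gave 0.22 for the core, 0.16 for the cap and -0.17 for the immunoproteasome minus the core, and cyclic loess 0.21, 0.15 and -0.17. Leaving out each array gave -0.26 to -0.17 for that difference.

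The replicate block gave 9 higher genes (7.03% of all genes). Deviations of same-numbered arrays had correlations of 0.0970, 0.511 and 0.0913, and those of differently numbered arrays -0.42 to 0.34. With 3 arrays of each genotype, these values cannot decide whether the numbers pair the pools.

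Small differences changed sign. With quantile normalization Psme1 was at -0.0181 and Irf1 at -0.0345, and with cyclic loess at -0.0192 and -0.0720. With normexp Psmb10 was at 0.17, Psmc3ip at -0.0816, Tap1 at -0.13, B2m at 0.0502 and the Psmb8 to Psmb5 ratio at -0.0307, which was -0.0234 when a gene's probes were averaged. On the shared slide, and with slide as a fixed block, Tap1 was at -0.23 and B2m at 0.13. Leaving out single arrays gave -0.38 to 0.00927 for Psma8, -0.0418 to 0.17 for Tap1, -0.0619 to 0.0461 for the Psmb8 to Psmb5 ratio, -0.0110 to 0.15 for Psmf1, -0.0234 to 0.12 for Irf1, -0.17 to 0.10 for Psmb10 and -0.22 to 0.0129 for B2m. Psmc3, at -0.0228 with quantile normalization and -0.0210 with cyclic loess, and Psmc5, at -0.0225 with cyclic loess, also turned, and no other proteasome gene did.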
